A study of Homo sapiens with 4 samples.

Results

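The genes described here encode hydrolases of the lysosomal lumen and proteins of the lysosomal membrane. They are 41 of the 61806 genes in the deposited expression table and were chosen by symbol for what they encode. The rule used no measured value, but earlier results of these data were known when the genes were chosen. By role they comprised 6 membrane proteins, 11 proteases, 11 glycosidases, 5 sulfatases, 6 lipid hydrolases and activators, and 2 acid phosphatases. RNA was measured in JJ012, a human chondrosarcoma cell line, and in 143B, a human osteosarcoma cell line, both kept in suspension so that the cells could not attach. Each line was left untreated as a control or given 1 mM melatonin, the pineal hormone, for 72 h. There was 1 poly(A) paired-end library for each of the 4 conditions, so the spread between cultures of a line could not be estimated and no test within a line was possible.

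Lysosomes are acidic organelles in which proteins, glycans, sulfated glycosaminoglycans, lipids and phosphate esters are taken apart to reusable units. Most of their soluble enzymes receive a mannose 6-phosphate tag in the Golgi, are carried by receptors to the organelle and work at the low pH that the V-ATPase proton pump maintains. Many lysosomal genes carry an E-box with the core CACGTG near their start, which the transcription factors TFEB, TFE3 and MITF recognise. In cartilage and bone, sulfatases and glycosidases degrade the matrix glycosaminoglycans, while cathepsin K and tartrate-resistant acid phosphatase are best known from bone-resorbing osteoclasts.

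The libraries held between 15889564 and 19218343 counts. Levels are given as FPKM, which scale the counts to exonic length and library total. A ranking of genes by FPKM therefore depends on the exonic length used. Of 8 chondrocyte markers, the defining matrix genes COL2A1 and ACAN were at or below 0.11 FPKM in all 4 libraries, whereas SOX9, COL9A2 and COL11A2 were at 15.06, 4.86 and 1.67 FPKM in the JJ012 control. Their sum was 22.61 and 8.48 FPKM in JJ012 control and melatonin and 21.65 and 19.09 in 143B. The sum of 8 osteoblast markers was 96.39 and 69.22 FPKM in JJ012, of which SPP1 made up 79.39 and 64.50, and 6.99 and 5.1 in 143B. RUNX2 was at 3.02 and 4.28 FPKM in the JJ012 and 143B controls, and SP7 and IBSP were at or below 0.13 FPKM in all libraries.

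The promoters of these genes were searched for the E-box of this factor family. RefSeq promoter windows (GRCh38.p14, 250 bases before to 50 bases after each start) were present for 29 of the 41 genes. CACGTG, which reads the same on both strands, occurred in 12 of the 29 (41.4%), against 10.9% of 15226 protein-coding genes and 7.26% of 35116 windows in the table. The longer TCACGTGA, which is also palindromic and contains the first motif, occurred in 6 of the 29 (20.7%), against 1.69% of protein-coding genes and 0.98% of windows. The 12 genes were ACP5, ARSB, CD63, CLN3, CTSA, CTSD, CTSF, GAA, GALNS, LAMP1, MCOLN1 and NEU1, and those with the longer motif were CLN3, CTSA, GAA, GALNS, LAMP1 and MCOLN1. A match describes the letters in the window and is not evidence of binding. The stretches below show the densest clusters and the genes with the largest differences after melatonin, 5′ to 3′ in the direction of the gene, with CACGTG in capitals and each lying before the RefSeq start.
LAMP1, chr13:113297035-113297114, plus strand: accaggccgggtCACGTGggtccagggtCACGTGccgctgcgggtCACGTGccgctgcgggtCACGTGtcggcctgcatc
LAMP1, chr13:113297199-113297228, plus strand: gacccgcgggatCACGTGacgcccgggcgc
GAA, chr17:80101493-80101567, plus strand: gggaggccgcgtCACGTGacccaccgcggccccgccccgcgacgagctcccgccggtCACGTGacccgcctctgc
MCOLN1, chr19:7522571-7522623, plus strand: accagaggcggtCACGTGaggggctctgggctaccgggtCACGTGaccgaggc
CTSA, chr20:45891281-45891327, plus strand: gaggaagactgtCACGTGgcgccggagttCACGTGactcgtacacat
CD63, chr12:55729172-55729201, minus strand: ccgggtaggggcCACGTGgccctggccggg
CTSD, chr11:1763957-1763986, minus strand: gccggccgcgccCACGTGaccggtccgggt
CTSF, chr11:66568640-66568669, minus strand: ccctgcgcgcccCACGTGcctcctgtaaac
ACP5, chr19:11577809-11577838, minus strand: gaggctgctgcaCACGTGtgcccagatcct
In the first LAMP1 stretch the core stands 4 times, starting between 192 and 142 bases before the start, and a further copy within TCACGTGA begins 28 bases before it. In GAA and MCOLN1 both copies shown lie within TCACGTGA. The copies nearest the start begin 31 bases before it in GAA, 14 in MCOLN1, 25 in CTSA, 180 in CD63, 47 in CTSD, 51 in CTSF and 181 in ACP5.

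Lysosomal genes took a larger share of the RNA in JJ012 than in 143B. The 41 genes held 1.67% of all counts in the JJ012 control (exact 95% interval 1.66% to 1.68%) and 1.36% after melatonin (1.35% to 1.37%). In 143B they held 0.472% (0.469% to 0.476%) and 0.449% (0.445% to 0.452%). Such intervals, here and for ratios, cover counting error alone. Their median level was 35.0 FPKM in the JJ012 control, 23.57 in melatonin-treated JJ012, 4.69 in the 143B control and 6.23 in melatonin-treated 143B. The median protein-coding gene with at least 1 FPKM was at 6.59, 7.77, 6.15 and 6.41 FPKM in the same order. In these bulk samples, fewer cells with a transcript and less of it per cell cannot be told apart.

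**Figure D1:**
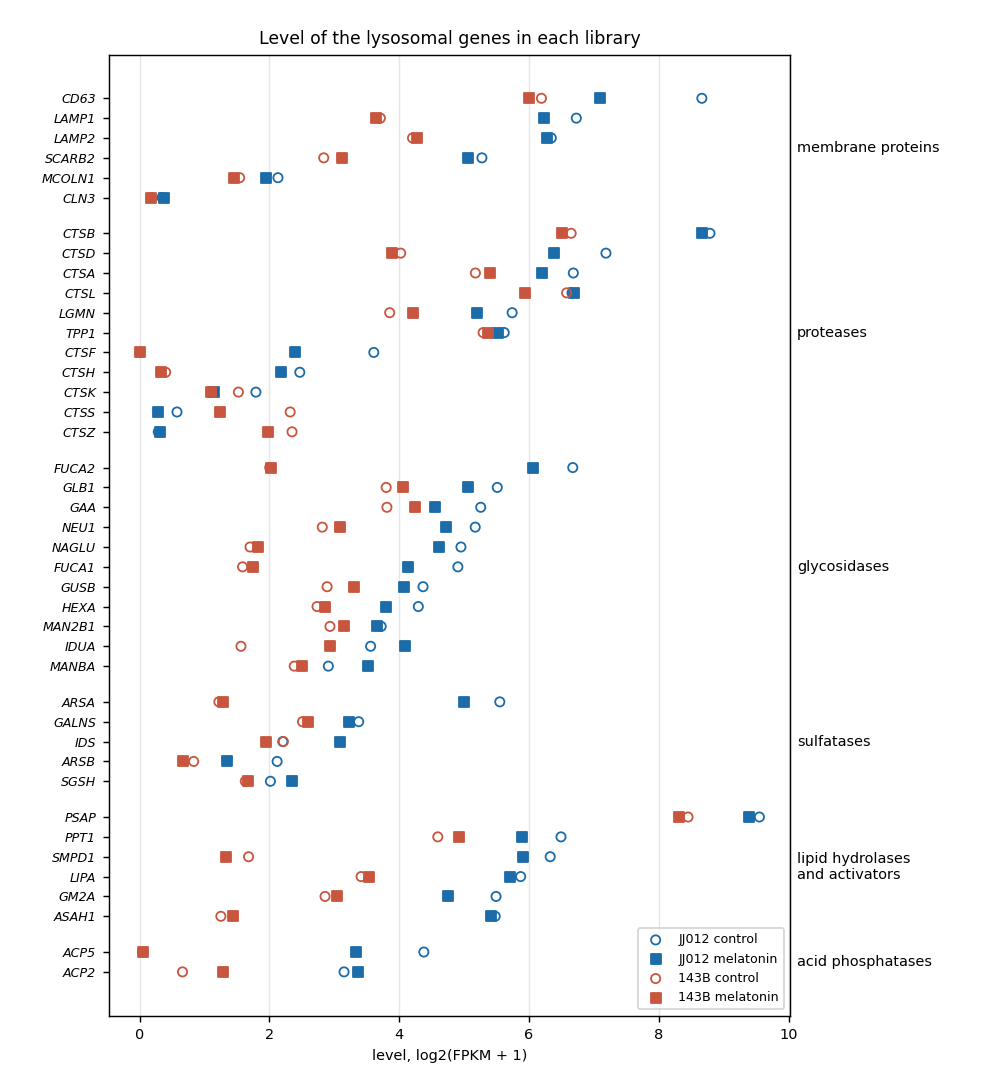
Level of each of the 41 lysosomal genes in each library as log2(FPKM + 1) on the horizontal axis, with genes in rows grouped by role and ordered by the JJ012 control. Open circles are controls and filled squares melatonin, blue for JJ012 and red for 143B, with 1 library for each symbol. Most blue symbols lie to the right of the red ones, whereas CTSS and CTSZ lie to the left.

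A few genes dominated the level. PSAP, the precursor of the saposins that activate sphingolipid hydrolases, was the highest in every library, at 747.90 FPKM in the JJ012 control, 666.31 in melatonin-treated JJ012, 348.39 in the 143B control and 317.76 in melatonin-treated 143B. CTSB, a cysteine protease, was at 440.58, 402.58, 99.28 and 89.91 FPKM. By counts the order in JJ012 was reversed, since CTSB has 10541 exonic bases and PSAP 3115. In the JJ012 control CTSB held 27.8% of the counts of the 41 genes and PSAP 13.9%. In the 143B control they held 22.2% and 23.0%. CD63, a tetraspanin of late endosomes and exosomes, was at 404.02, 135.75, 72.03 and 62.66 FPKM. All of these were higher in both JJ012 libraries than in either 143B library, and the gap for CD63 was much narrower once JJ012 had received melatonin. CTSL, a cysteine protease, was at 100.18, 102.82, 94.51 and 60.24 FPKM, with only melatonin-treated 143B standing apart. CTSD, the main aspartic protease of the lysosome, was at 144.43, 82.67, 15.24 and 13.77 FPKM. These 5 genes made up 60.5% of the summed FPKM of the 41 genes in each JJ012 library, 71.2% in the 143B control and 65.1% in melatonin-treated 143B.

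The untreated lines were compared first, for how far the lysosomal program differed between a chondrosarcoma and an osteosarcoma line in suspension. The difference of a gene is given as log2 of (FPKM + 1) in one library over (FPKM + 1) in the other, over genes with at least 1 FPKM in either library, and 0.58 in either direction counts as higher or lower. This scale understates differences of genes near 1 FPKM, so the ratio of CPM, the counts scaled to the library total alone, is given beside it for single genes. Of the 41 genes, 40 passed the filter. JJ012 was higher in 32 of them (80.0%) and 143B in 2 (5%), and 6 did not reach 0.58. Among all 16929 genes that passed, 41.3% were higher in JJ012 and 27.4% lower. Among the 12329 protein-coding genes, 39.6% were higher and 25.1% lower. The median difference of the lysosomal genes was 1.95, against 0.29 over all genes and 0.26 over protein-coding genes. With trimmed-mean (TMM) scaling the median gene moved to 0.01 and the lysosomal median to 1.64, so the lysosomal genes stood 1.66 above the median gene on the first scale and 1.62 above it on the second. With TMM scaling 29 of the 40 were higher in JJ012 (72.5%) and 2 lower (5%), against 33.6% and 34.2% of all genes, and MCOLN1, MAN2B1 and GALNS no longer reached 0.58.

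**Figure D2:**
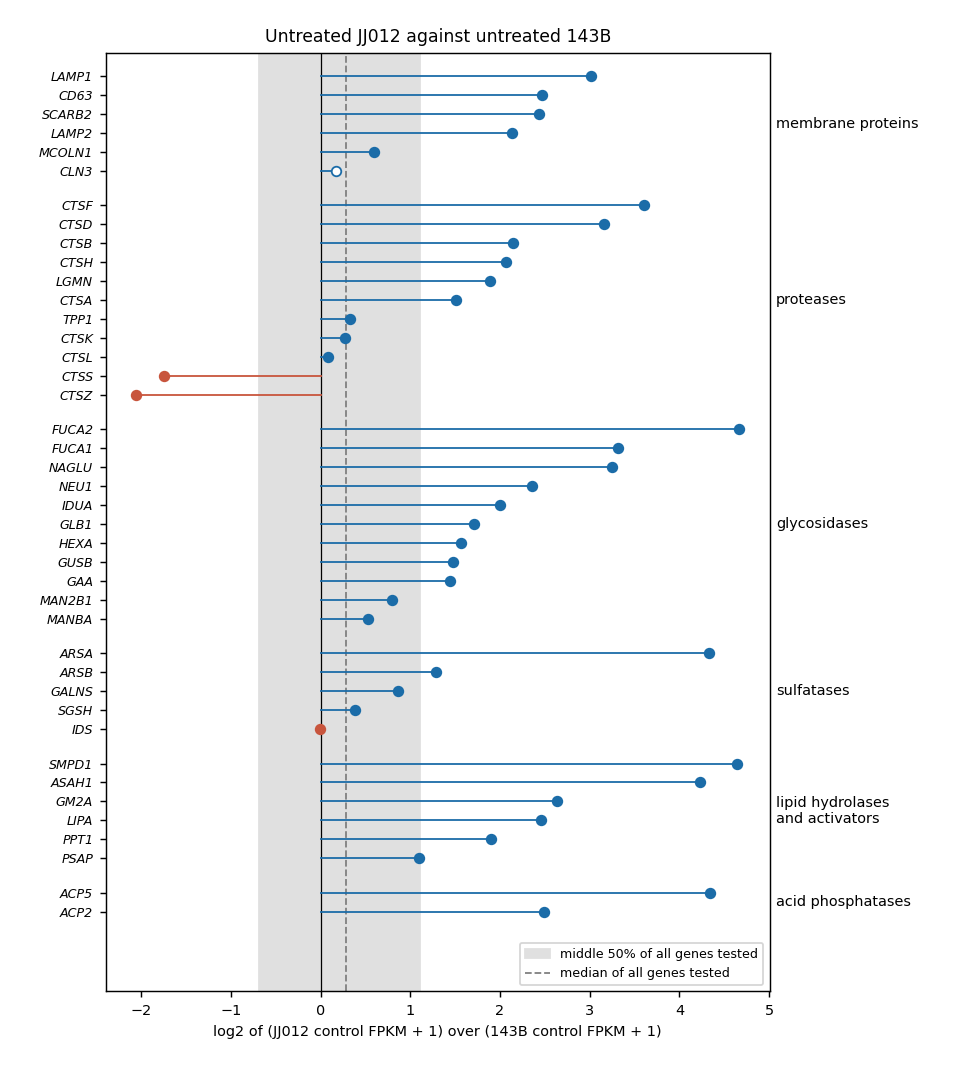
Difference between the untreated libraries for each lysosomal gene, as log2 of (JJ012 FPKM + 1) over (143B FPKM + 1), in rows grouped by role. Blue points are above 0 and red points below, and the open point is CLN3, under 1 FPKM in both libraries. The grey band holds the middle 50% of all genes tested, from -0.69 to 1.10, and the dashed line marks their median. Most lysosomal genes lie to the right of the band.

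All 5 membrane proteins that passed the filter were higher in JJ012. LAMP1, an abundant glycoprotein that lines the lysosomal membrane, was at 104.98 FPKM in the JJ012 control and 12.07 in the 143B control, 8.70-fold higher by CPM. LAMP2, its relative with a role in chaperone-mediated autophagy, was at 80.13 and 17.43 FPKM. SCARB2, an integral protein of the lysosomal membrane, was at 37.67 and 6.14 FPKM, and the cation channel MCOLN1 was at 3.38 and 1.91. CD63 differed 5.61-fold by CPM. The 4 glycoproteins LAMP1, LAMP2, SCARB2 and CD63 thus differed by 2.14 to 3.02 on the log2 scale, and MCOLN1 by 0.59, just past the threshold.

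The proteases did not move as a block. Of 11, 6 were higher in JJ012, 2 were higher in 143B and 3 did not reach 0.58. CTSF, a cysteine cathepsin, had 914 counts in the JJ012 control and 0 in the 143B control, at least 252-fold higher against a floor of 3 counts. CTSD differed 9.47-fold by CPM, with an exact 95% interval of the log2 ratio from 3.16 to 3.32. CTSH, an aminopeptidase of the same family as CTSF, was at 4.53 and 0.32 FPKM. CTSS and CTSZ went the other way. CTSZ, a carboxypeptidase, was at 0.22 FPKM in the JJ012 control and 4.09 in the 143B control, 18.8-fold lower in JJ012 by CPM. CTSS, which trims the invariant chain in antigen-presenting cells, was at 0.49 and 3.99 FPKM, 8.13-fold lower. CTSL, CTSK and TPP1, at 0.08, 0.27 and 0.33 on the log2 scale, did not reach the threshold. CTSL and TPP1 lay on the other side of 0 with TMM scaling, and CTSL and CTSK after centring on the median gene.

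The enzymes that cut glycans and sulfated glycans were higher in JJ012 in most cases. Of 11 glycosidases, 10 were higher and MANBA (β-mannosidase) did not reach 0.58. FUCA2, an α-fucosidase, was at 101.04 FPKM in the JJ012 control and 3.01 in the 143B control, 33.6-fold higher by CPM (log2 ratio 5.07, exact 95% interval 4.82 to 5.33). FUCA1, the lysosomal α-fucosidase, was at 28.91 and 2.00 FPKM, 14.4-fold higher, and NAGLU, an enzyme of heparan sulfate breakdown, was at 29.91 and 2.25, 13.3-fold higher. Both fucosidases therefore differed by an order of magnitude or more. Of 5 sulfatases, 3 were higher. ARSA, which removes sulfate from sulfatide, was at 45.81 FPKM in the JJ012 control and 1.33 in the 143B control, 34.5-fold higher. IDS, the iduronate sulfatase of heparan and dermatan sulfate breakdown, was at 3.61 and 3.64 FPKM, with a log2 CPM ratio of -0.01 (-0.18 to 0.16). IDS was the one gene in this comparison whose interval included 0.

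All 6 lipid hydrolases and activators and both acid phosphatases were higher in JJ012. SMPD1, acid sphingomyelinase, was at 79.18 FPKM in the JJ012 control and 2.20 in the 143B control, 35.9-fold higher by CPM (log2 ratio 5.17, exact 95% interval 4.87 to 5.47). ASAH1, acid ceramidase, which acts on the product of SMPD1, was at 43.56 and 1.38 FPKM, 31.7-fold higher. GM2A, LIPA, PPT1 and PSAP, the remaining genes of lipid breakdown, differed by 2.63, 2.46, 1.90 and 1.10 on the log2 scale. ACP5, tartrate-resistant acid phosphatase, was at 19.80 FPKM in the JJ012 control and 0.03 in the 143B control. These were 1656 and 2 counts, a log2 CPM ratio of 9.42 with an exact 95% interval from 7.56 to 12.47. ACP2, the general lysosomal acid phosphatase, was at 7.87 and 0.58 FPKM. Because ACP5, CTSK and CTSS are also myeloid and osteoclast genes, 10 markers of those cells were read beside them. They summed to 11.24 FPKM in the JJ012 control, 5.24 in melatonin-treated JJ012, 13.14 in the 143B control and 9.65 in melatonin-treated 143B. Without OSCAR, left out after its level was seen (7.57 and 12.87 FPKM in the JJ012 and 143B controls), the markers summed to 3.67 FPKM in the JJ012 control, 1.47 in melatonin-treated JJ012, 0.27 in the 143B control and 0.08 in melatonin-treated 143B. OCSTAMP had no count in any library, and the part of such cells in these levels was not tested.

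The second question was what 1 mM melatonin did to these genes in JJ012. Of the 41 genes, 38 passed the filter, and CLN3, CTSS and CTSZ were under 1 FPKM in both libraries. After melatonin 11 of the 38 (28.9%) were lower, 2 (5.26%) were higher and 25 did not reach 0.58. Among all 15794 genes that passed, 18.6% were lower and 19.6% higher. Among 11534 protein-coding genes, 16.1% were lower and 17.8% higher. In all, 32 of the 38 lay below 0 and 6 above, whereas 50.4% of all genes lay above 0. The median was -0.38, against 0.0084 over all genes and 0.025 over protein-coding genes.

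The split between lower and higher depended on the scale. Rescaling FPKM to TPM raised the median gene to 0.27. The lysosomal genes then split into 5 lower and 4 higher, with 22 of 38 below 0, and the median was -0.11. These were 13.2% lower and 10.5% higher, against 15.7% and 34.6% of all genes in TPM, so the share lower was no longer above the background. TMM scaling gave 8 lower (21.1%) and 3 higher (7.89%), against 15.9% and 21.5% of all genes. Relative to the median gene, the lysosomal median stood at -0.386 in FPKM and -0.385 in TPM. Shorter genes tended to lower values after melatonin in JJ012. Spearman's rho between the log2 difference and exonic length was 0.399 across protein-coding genes and 0.36 across the 38 lysosomal genes, which share these 2 libraries, and the median exonic length was 5374 bases for the 41 genes against 5236.5 for protein-coding genes. Less the running median over length, 12 were lower (31.6%) and 2 higher (5.26%), against 16.4% and 18.1% of all genes, but FUCA1, FUCA2, PPT1 and MANBA no longer reached 0.58. In FPKM with a threshold of 1, 7.9% were lower and 0% higher, against 6.9% and 7.9% of all genes, so the share lower was near the background.

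**Figure D3:**
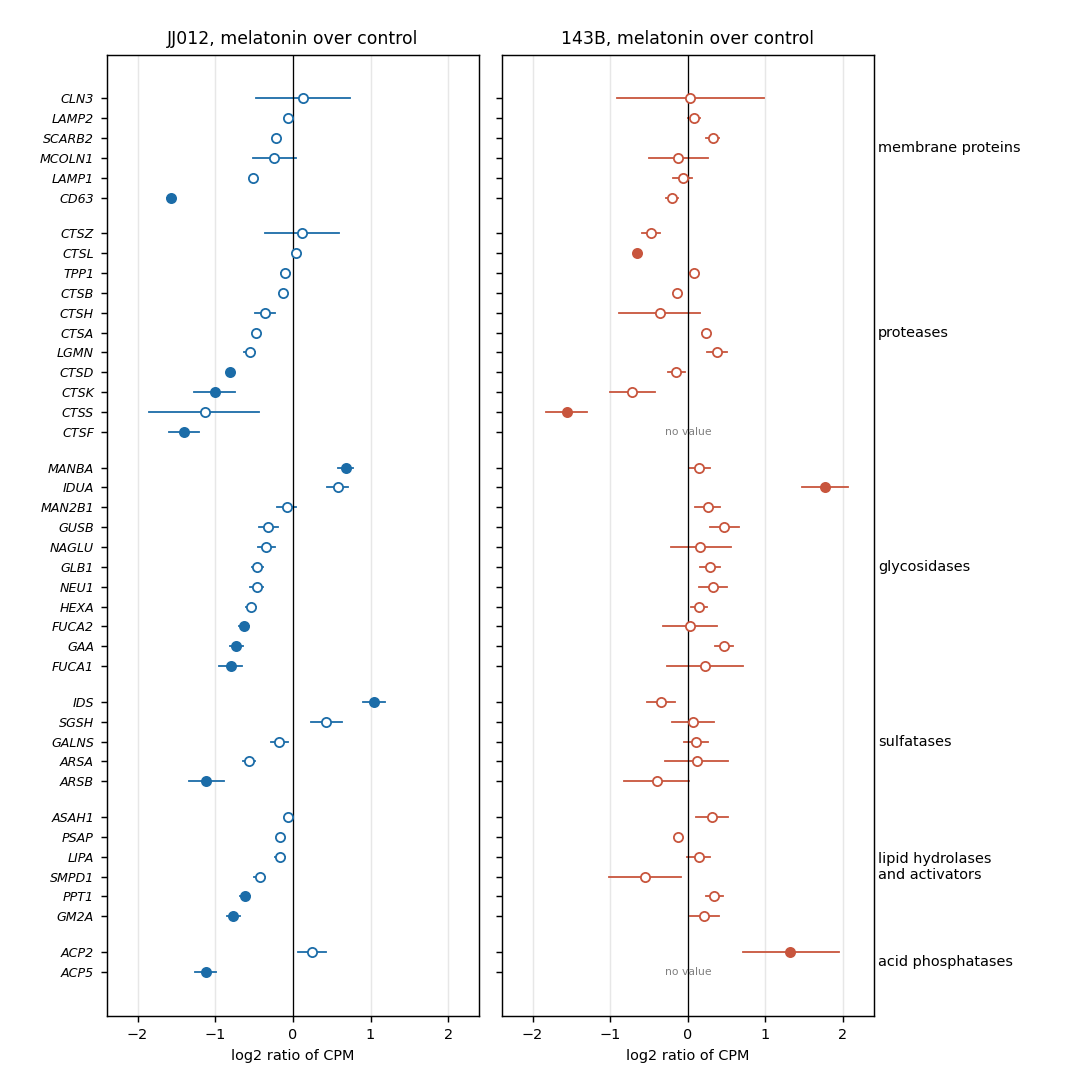
Ratio of CPM in melatonin-treated over control cells, on a log2 scale, for each lysosomal gene in JJ012 (left, blue) and 143B (right, red), in rows grouped by role. Bars are exact 95% intervals for counting error, and filled points are genes that passed 1 FPKM in either library and reached 0.58 in log2 of (FPKM + 1). CTSF and ACP5 have no value in 143B, where neither had more than 3 counts. In JJ012 most points lie left of 0, and in 143B all 11 glycosidases lie right of it.

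Among the membrane proteins, CD63 alone reached the threshold. It was at 404.02 FPKM in the JJ012 control and 135.75 after melatonin, 2.98-fold lower by CPM (log2 ratio -1.57, exact 95% interval -1.62 to -1.53), and this was the lowest value of the 38 genes. An antisense transcript, CD63-AS1, shares 9.0% of the exonic bases of CD63 and had 116 and 88 counts against 18806 and 5308 for CD63. LAMP1, at 104.98 and 73.76 FPKM, was at -0.50 and LAMP2, at 80.13 and 76.38, at -0.07. SCARB2 and MCOLN1 were at -0.22 and -0.18. In TPM, LAMP2, SCARB2 and MCOLN1 lay above 0, whereas CD63 and LAMP1 stayed below it.

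Of the 9 proteases that passed the filter, 3 were lower and none was higher. CTSF was at 11.19 FPKM in the JJ012 control and 4.23 after melatonin, 2.65-fold lower by CPM (log2 ratio -1.40, exact 95% interval -1.60 to -1.21). CTSD was at 144.43 and 82.67 FPKM, 1.75-fold lower (-0.81, -0.84 to -0.77). A transcript on the same strand overlaps 41.7% of the exonic bases of CTSD and had 109 and 119 counts, against 15813 and 7603 for CTSD. CTSK, the collagen-degrading cathepsin of osteoclasts, was at 2.46 and 1.22 FPKM, 399 and 167 counts, 2.01-fold lower. The 3 differed in level by a wide margin, and CTSD was past the threshold in FPKM but at -0.53 in TPM. LGMN, the asparaginyl endopeptidase that matures other cathepsins, was just outside the threshold at -0.55. The most abundant proteases, CTSB and CTSL, were at -0.13 and 0.04.

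Of the 11 glycosidases, 3 were lower and 1 higher in FPKM, whereas in TPM none was lower and 2, IDUA and MANBA, were higher. FUCA1 was at 28.91 FPKM in the JJ012 control and 16.59 after melatonin, 1.74-fold lower by CPM. FUCA2 was at 101.04 and 65.46 FPKM, 1.54-fold lower. GAA, the acid α-glucosidase that degrades glycogen, was at 37.18 and 22.47 FPKM, 1.66-fold lower (log2 ratio -0.73, exact 95% interval -0.81 to -0.65). MANBA was higher, at 6.50 FPKM in the JJ012 control and 10.42 after melatonin, 1.60-fold by CPM. IDUA, the α-iduronidase of dermatan and heparan sulfate breakdown, was at 10.78 and 16.07 FPKM, just under the threshold at 0.54. The other 6 glycosidases lay between -0.50 for HEXA, a subunit of β-hexosaminidase, and -0.07 for MAN2B1, an α-mannosidase.

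The sulfatases went both ways. IDS, which acts just before IDUA on the same glycosaminoglycans, was at 3.61 FPKM in untreated JJ012 and 7.47 with melatonin (645 and 1121 counts), 2.07-fold higher by CPM (log2 ratio 1.05, exact 95% interval 0.91 to 1.19), the highest value of the 38 genes. A transcript on the same strand overlaps 16.5% of its exonic bases and had 112 and 109 counts. ARSB, the arylsulfatase of dermatan and chondroitin sulfate, was at 3.34 FPKM in the JJ012 control and 1.55 after melatonin, 2.16-fold lower. ARSA, at 45.81 and 30.90 FPKM, was at -0.55, just outside the threshold, and SGSH (heparan sulfamidase) and GALNS (keratan sulfate and chondroitin sulfate) were at 0.34 and -0.16. IDS and SGSH thus lay above 0 and ARSA, ARSB and GALNS below it. In TPM, GALNS lay above 0 and SGSH reached the threshold as higher.

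All 6 lipid hydrolases and activators lay below 0, and 2 were past the threshold. In TPM ASAH1, LIPA and PSAP lay above 0 and neither GM2A nor PPT1 reached the threshold, and PPT1 also missed it with TMM scaling. GM2A, the activator that presents ganglioside GM2 to β-hexosaminidase, was at 43.97 FPKM in the JJ012 control and 25.81 after melatonin, 1.70-fold lower by CPM. PPT1, a palmitoyl-protein thioesterase, was at 88.99 and 58.03 FPKM, 1.53-fold lower. PPT1 shares 23.4% of its exonic bases with CAP1 on the opposite strand, and how reads in that stretch were assigned is not given in the sources used here. ACP5 was at 19.80 FPKM in the JJ012 control and 9.08 after melatonin, 2.18-fold lower (log2 ratio -1.12, exact 95% interval -1.26 to -0.99). The summed myeloid and osteoclast markers were also lower, as were the summed chondrocyte and osteoblast markers, as given above. ACP2, at 7.87 and 9.33 FPKM, was at 0.22.

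Genes with an E-box in the window were compared with those without. Of the 12 genes with CACGTG, 11 passed the filter in JJ012, of which 6 were lower and none higher after melatonin, with a median of -0.70 and a range from -1.57 to -0.16. Of the 17 without it, 16 passed, of which 4 were lower and 1 higher, with a median of -0.25. Among all genes that passed, 18.6% were lower and 19.6% higher. In TPM, CTSD and GAA, which have the motif, no longer reached the threshold. The same held for FUCA1, FUCA2, GM2A and PPT1, which lack it, whereas IDUA, also without it, became higher. In the untreated lines, 11 of 11 genes with the motif were higher in JJ012, with a median of 2.36, and 13 of 17 without it, with a median of 2.00. Among all genes that passed, 41.3% were higher in JJ012. With TMM scaling MCOLN1 and GALNS, which have the motif, and MAN2B1, which lacks it, no longer reached 0.58. In 143B the medians after melatonin were 0.01 for 8 genes with the motif and 0.17 for 16 without it. For the 12 genes with no window, the median in JJ012 was -0.17 and that of the untreated lines 1.72. These are descriptions of small groups that share libraries, and the ranges with and without the motif overlapped in each comparison.

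In 143B melatonin moved fewer of these genes past the threshold. Of the 41 genes, 36 passed the filter, and ARSB, CTSH, CTSF, CLN3 and ACP5 were under 1 FPKM in both libraries. Of the 36, 2 (5.56%) were higher, 2 (5.56%) were lower and 32 did not reach 0.58. Among all 14135 genes that passed, 6.09% were higher and 6.65% lower, so both counts were near the background. Among 10878 protein-coding genes, 3.48% were higher and 2.6% lower. The median was 0.10, against 0.03 over all genes. In all, 24 genes (66.7%) lay above 0 and 12 below, against 53.6% of all genes and 56.0% of protein-coding genes above 0.

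IDUA was the highest of the 36 genes. It was at 1.95 FPKM in the 143B control and 6.63 after melatonin, 126 and 462 counts, 3.39-fold higher by CPM (log2 ratio 1.76, exact 95% interval 1.48 to 2.06). IDUA shares 13.4% of its exonic bases with SLC26A1 on the opposite strand, whose counts were 19 and 51. ACP2 was at 0.58 and 1.44 FPKM, 32 and 86 counts, 2.49-fold higher (1.31, 0.71 to 1.95), and less the running median over exonic length it no longer reached 0.58. All of the other 10 glycosidases also lay above 0, between 0.02 for FUCA2 and 0.44 for GAA. The counting intervals of FUCA1, FUCA2 and NAGLU included 0. FUCA2 lay below 0 in TPM and after median-of-ratios scaling, centring on the median gene or subtraction of the running median over length. GAA was at 13.02 FPKM in the 143B control and 17.98 after melatonin, and GUSB (β-glucuronidase) was at 6.40 and 8.86.

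The 5 cysteine cathepsins that passed the filter lay below 0 in 143B. CTSS was at 3.99 FPKM in the control and 1.35 after melatonin, 437 and 160 counts, 2.95-fold lower by CPM (log2 ratio -1.56, exact 95% interval -1.83 to -1.30). CTSL was at 94.51 and 60.24 FPKM, 9180 and 6321 counts, 1.57-fold lower (-0.65, -0.70 to -0.60). CTSK, CTSZ and CTSB were at -0.42, -0.37 and -0.14, none past the threshold, although CTSK reached it in CPM, in TPM and with a pseudocount of 0.1 FPKM. The serine and other proteases CTSA, TPP1 and LGMN were at 0.23, 0.07 and 0.36, and the aspartic protease CTSD at -0.14. Among the remaining genes, SMPD1 was at -0.35, PPT1 at 0.33 and SCARB2 at 0.28, and IDS, the gene highest in JJ012, was at -0.26. CD63, the lowest in JJ012, was at 72.03 and 62.66 FPKM and -0.20.

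The responses of the lines were then set against each other. They share no library. Of 34 genes tested in both lines, 20 (58.8%) lay below 0 in JJ012 and above 0 in 143B, against 25.1% of 11822 genes. In TPM these were 12 (35.3%) and 14.9%. A further 8 lay below 0 in both lines, 4 above 0 in both, and 2 above 0 in JJ012 and below it in 143B. No gene was past the threshold in both lines in FPKM. With only 2 higher and 2 lower in 143B few could be, and the overlap over all genes was not counted. On other scales CTSK was lower in both (TPM, CPM and a pseudocount of 0.1 FPKM), and IDUA was higher in both (TPM, TMM and less the running median over length). For the 39 genes with counts enough in both lines, the log2 CPM ratio in JJ012 minus that in 143B had a median of -0.44. Its interval lay below 0 in 26, above 0 in 5 and across 0 in 8. The same count was not made over all genes, so it is no result about lysosomal genes in particular. The difference was -1.37 for CD63 (95% interval -1.46 to -1.28), -1.19 for GAA (-1.33 to -1.06) and -1.19 for IDUA (-1.50 to -0.87). It was 1.39 for IDS (1.16 to 1.62) and 0.69 for CTSL (0.63 to 0.75). These intervals cover counting error only, and whether the lines differ beyond the spread between cultures was not tested. For PSAP and CTSB, the most abundant, the difference was -0.03 (-0.07 to 0.0029) and 0.01 (-0.02 to 0.05). The comparison of the untreated lines uses the same control libraries as each response, so an error in a control would enter both.

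Genes that surround these proteins in the pathway were read from lists, and their counts stand against the shares of all genes given above for each comparison. Of 21 other lysosomal enzymes and transporters, 18 passed the filter in JJ012, with 4 lower and 1 higher after melatonin. NPC1, the membrane protein that exports cholesterol from lysosomes, was at 28.28 FPKM in the JJ012 control and 121.62 after melatonin, a log2 difference of 2.07, and at 80.85 and 57.87 in 143B. Its soluble partner NPC2 was lower in JJ012, at 87.62 and 53.63 FPKM, and CTSO, DPP7 and SUMF1 were at -1.61, -0.90 and -0.83. The cholesterol exporters thus moved apart in JJ012. In 143B, 15 passed, 3 were higher (among them HYAL2 and HGSNAT, at 0.69 and 0.64) and none was lower. Between the untreated lines 16 of 18 were higher in JJ012 and 1, NPC1, was lower.

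Of 24 V-ATPase subunits and accessory proteins, 20 passed the filter in JJ012, with 4 lower (20%) and 3 higher (15%), near the 18.6% and 19.6% of all genes. ATP6V0D2, a membrane-sector subunit abundant in osteoclasts, was at 2.50 FPKM in the control and 7.54 after melatonin, ATP6V0A2 was at 2.05 and 4.25, and ATP6V1B2 was higher at 0.61. ATP6V0E1, ATP6AP2, ATP6AP1 and ATP6V1G2 were lower, at -0.73, -0.69, -0.61 and -0.60. In TPM, 5 of the 20 were higher and none lower, against 34.6% and 15.7% of all genes. In 143B, 1 of 17, ATP6V1C2, was lower at -0.62 and none was higher. Between the untreated lines 14 of 20 were higher in JJ012 and none lower. The median of the pump genes was 1.35 between the controls, and after melatonin it was -0.24 in JJ012 and 0.01 in 143B.

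Of 12 genes for the mannose 6-phosphate tag and sorting, 11 passed in JJ012, with AP1S1, GNPTG and SORT1 lower at -1.05, -0.96 and -0.88 and GGA3 higher at 0.62. None of 11 reached the threshold in 143B. Between the untreated lines 7 of 12 were higher in JJ012, and SORL1, GGA2 and GGA3 were lower. The tagging enzyme subunit GNPTG, at 28.27 FPKM against 2.74, and the receptor M6PR, at 57.10 against 20.50, were among the 7.

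Of 9 genes of TFEB, TFE3, MITF and their regulators, 8 passed in JJ012, with 2 higher and none lower after melatonin. These 2 were FNIP2, at 7.67 FPKM in the control and 31.94 after melatonin, and FNIP1, at 9.70 and 22.35, which encode partners of folliculin. Folliculin itself, FLCN, was at 5.60 and 6.93 FPKM in JJ012 and at 12.37 and 6.87 in 143B, where it was the 1 gene of 6 past the threshold, at -0.76. TFE3, the most abundant of the 3 factors, was at 22.71, 21.67, 13.22 and 12.19 FPKM in the JJ012 control, JJ012 melatonin, 143B control and 143B melatonin libraries, and TFEB was at 1.94, 1.28, 0.76 and 0.81. MITF was at 2.58 and 2.01 FPKM in JJ012 and at 0.19 and 0.22 in 143B. Between the untreated lines 4 of 8 were higher in JJ012 (MITF, ZKSCAN3, TFEB and TFE3) and 1, FLCN, was lower. These counts depended on the scale. TFEB and TFE3 were each at 0.74 in FPKM, where the median gene itself was at 0.29. In TPM 3 of the 8 were higher and 2 lower, against 36.2% and 37.2% of all genes. With a threshold of 1 in FPKM, 1 was higher, MITF, and 1 lower.

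Of 13 cathepsin inhibitors, 6 passed in JJ012, with CST3 and SERPINB8 lower and none higher. CST3, cystatin C, the main secreted inhibitor of cysteine cathepsins, was at 161.79 FPKM in untreated JJ012 and 64.53 with melatonin, and at 9.31 and 9.54 in 143B. Of 6 in 143B, CSTB, the cytosolic cystatin B, was higher, at 120.25 and 268.13 FPKM, and SERPINB3 was lower at -0.71. In JJ012 CSTB was at 79.85 and 80.20 FPKM. Between the untreated lines CST3, CSTA and SERPINB1 were higher in JJ012 and SERPINB3, SERPINB8 and CSTB lower, of 7 tested.

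**Figure D4:**
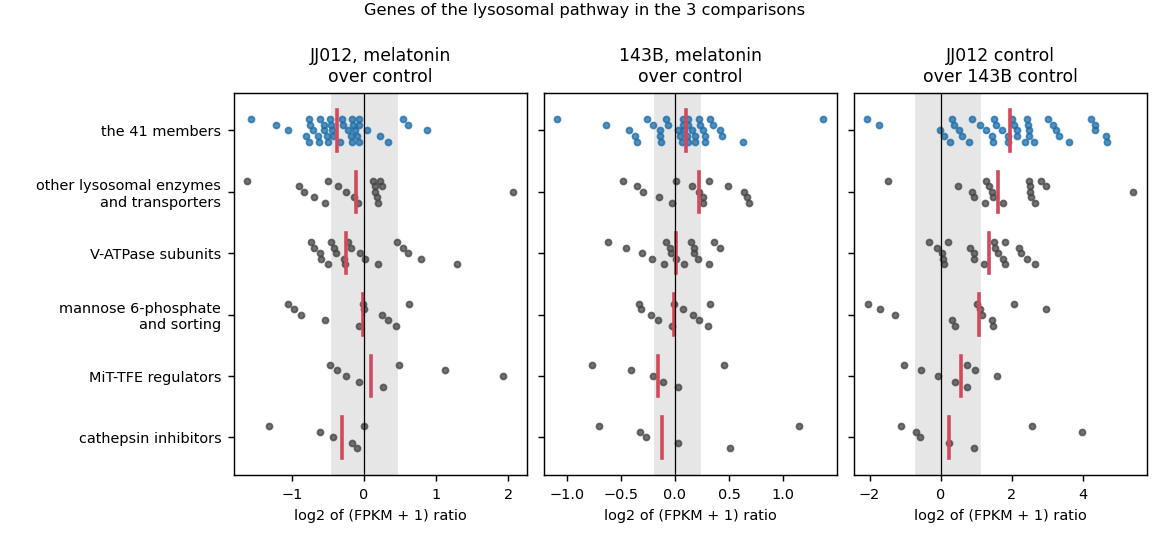
Log2 of the (FPKM + 1) ratio for the lysosomal genes (blue) and related lists (grey) in the 3 comparisons, with 1 point for each gene that passed 1 FPKM in either library. Red bars are list medians and the grey band holds the middle 50% of all genes tested. In the right panel the medians of the lysosomal genes, other lysosomal enzymes and V-ATPase subunits, at 1.95, 1.60 and 1.35, lie to the right of the band.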

How the data were processed

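RNA-seq of 4 libraries was used, with 1 library per condition. The table the authors deposited gives raw counts for each gene, the exonic length of each gene, and FPKM, which are the counts normalized to exonic length and library total. Recomputed FPKM differed from the deposited values by at most 0.005. Per the labels' processing notes the named tools were cutadapt 1.9.1, HISAT2 2.2.1, HTSeq 0.6.1 and DESeq2, on hg38, and the strand setting is not given in the sources used here. Columns were matched to samples by cell line, and the suffix T was read as melatonin-treated.

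The 41 genes and the related lists were chosen with earlier results of these data known. Genes with at least 1 FPKM in either library were compared as log2 of (FPKM + 1), and 0.58 in either direction was counted as called. With 1 library per condition no count test was run. CPM ratios have exact (Clopper-Pearson) 95% intervals, and differences of such ratios have delta-method intervals, for counting error only. The floor of 3 counts was 0.156 to 0.189 CPM. Values are given for each gene past the threshold, up to 10 in full, for the 5 highest by mean FPKM, and for up to 4 of each related list. Other genes of the 41 may be named. A few related genes that qualified are not reported here. Genes of related lists named outside this rule (TFE3, TFEB, MITF, FLCN in JJ012, M6PR, CSTB in JJ012, and members that complete a count) were added after their values were seen. Marker lists are given as summed FPKM. The procedures were tested on simulated data.

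Exon overlaps and gene types came from GENCODE 29, whose start and end matched the authors' for 71.5% of 58254 shared genes. Promoter windows came from RefSeq, matched by symbol. Python 3.11.15, numpy 2.4.6, pandas 2.3.3, scipy 1.17.1, matplotlib 3.10.9, R 4.3.3, edgeR 4.0.16 (TMM) and DESeq2 1.42.0 (size factors) were used.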

Additional observations from a re-analysis of the deposited data

Results flagged for a closer look

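For 4 lysosomal genes the ratio of melatonin to control lay on opposite sides of 0 in the lines, with both counting intervals away from 0 and at least 1 line past the threshold. The share of all genes that meet this rule was not counted, so the number is no result about lysosomal genes in particular. The log2 CPM ratio in JJ012 minus that in 143B was -1.19 for GAA, -0.98 for GM2A and -0.96 for PPT1, which were lower in JJ012 after melatonin and above 0 in 143B, and 1.39 for IDS, which was higher in JJ012 and below 0 in 143B. In TPM, GAA, GM2A and PPT1 did not reach the threshold in JJ012, and PPT1 also missed it with TMM scaling and less the running median over exonic length, whereas IDS reached it in each of these. With 1 library per condition the difference between the lines was not tested against the spread between cultures.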

How the results depend on the processing

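Of the main counts and medians, 88 of 100 values under 10 alternatives stayed within 1.5 times the main count or the spread set for it. None reversed, but a threshold of 1 cannot move a median, and shares against the background are not among these values. In TPM, 13.2% of the lysosomal genes were lower in JJ012 after melatonin, below the 15.7% of all genes. With a filter of 5 FPKM, 143B had 1 gene higher and 1 lower (2 and 2 at 1 FPKM), and 0 genes were lower in untreated JJ012 than in 143B (2 at 1 FPKM), since fewer genes were tested. With a threshold of 1, JJ012 had 0 higher and 3 lower (2 and 11 at 0.58) and 143B 1 and 1. The share lower in JJ012 was then 7.9%, near the 6.9% of all genes, and the share higher 0% against 7.9%. In 143B both shares were 2.8%, against 1.7% of all genes higher and 2.7% lower. In TPM, JJ012 had 4 higher and 5 lower, a median of -0.11 (-0.38 in FPKM) and a median difference between lines of -0.18 (-0.44 in FPKM), since the median gene itself moved to 0.27. Less the running median over exonic length, 1 gene was higher in 143B, a split of 1 to 2.

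The background counts moved too. In TPM 5468 genes were higher in JJ012 (3102 in FPKM) and 1520 lower in 143B (940). With a pseudocount of 0.1 FPKM, 1514 were higher and 1434 lower in 143B (861 and 940). With a threshold of 1, 1241 were higher and 1086 lower in JJ012 (3102 and 2934), and 242 and 387 in 143B. With a filter of 5 FPKM, 1861 and 1491 were counted in JJ012, 280 and 267 in 143B, and 3590 and 2562 between the controls (6990 and 4636). An additive fit of line and treatment, pairing control and melatonin by line, would take the difference between the lines as error and was not run. Depth limits CLN3, ACP2, ACP5, FUCA1, CTSH and CTSF in 143B, with at most 86 counts in either library.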
